A study of Mus musculus with 6 samples.

Results

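The LIF receptor, Jak and Stat3 pathway was followed in mouse embryonic stem cells (mESCs) lacking Setd2. Its 9 members, Lif, Lifr, Il6st, Jak1, Jak2, Stat3, Socs3, Pim1 and Pim3, are 9 of the 18193 genes that the array names, and were taken at every probe set whose platform annotation names 1 of them alone, which gave 26 of the 45037 probe sets on the array. Leukaemia inhibitory factor (LIF) is the cytokine that keeps mESCs self-renewing in culture. It binds its receptor chain Lifr, which pairs with the shared signalling chain gp130 (encoded by Il6st), and the kinases bound to these chains phosphorylate the transcription factor Stat3, which moves to the nucleus and switches on its targets. Among those targets is Socs3, which binds the receptor and the kinases and closes the loop as a brake.

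The groups were 3 arrays of Setd2 knockout mESCs and 3 arrays of wild type mESCs, all from a 129SV/C57BL/6 strain background, with no specific treatment of either. Setd2 is the methyltransferase that places the H3K36me3 mark on the histones of transcribed genes, and the study looked for deregulated genes needed for primitive endoderm differentiation. All cells had grown on feeder cells in ES medium and were cleared of feeders as far as possible by settling on gelatin and 1 passage without them, and the labels do not say whether LIF was added, which part of Setd2 was deleted, or how many clones were used. The arrays are called biological repeats, but nothing says that they came from separate derivations, so p-values measure only the spread between these arrays. Values are log2 signals. The Affymetrix algorithm MAS5 had combined the probes of each probe set into a single signal.

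The Setd2 probe set (1428555_at) read 9.37, 9.50 and 9.60 on the knockout arrays, against 10.31, 10.30 and 10.31 on the wild type arrays. Its log2 difference was -0.82 with an SE of 0.12 (limma adjusted p = 0.0272). This call was lost without any 1 of the wild type arrays or without knockout array 2 or 3 (adjusted p from 0.0690 to 0.212), and whether its probes sit inside the deletion is unknown, so it need not check the genotype. Of 10 stem cell markers, 1 passed the threshold, beside 0.736% of all genes at their brightest tested probe set. It was the naive marker Zfp42, which lies on chromosome 8 and whose signal was 3.98-fold lower in knockout cells. The lines differed in more than Setd2: the Y-linked Eif2s3y read between 11.16 and 11.57 on the knockout arrays and between 4.46 and 5.16 on the wild type arrays, and the 709 tested genes of chromosome 8 had a median difference of -0.34. What separates the genotypes below and what separates the lines cannot be told apart. None of the 9 members lies on chromosome 8 or Y.

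Across the pathway no member differed past the threshold of 0.05 on the adjusted p. Of the 26 probe sets 22 passed the filter on dim signals, at least 1 for each gene, and 0 of these 22 were called higher or lower in knockout cells (limma, adjusted p from 0.274 to 1.00), where 0.648% of all 27022 tested probe sets were called (0.274% higher, 0.374% lower). An unadjusted p under 0.05 was reached by 2 of the 22, beside 11.7% of all tested probe sets. The knockout and wild type values did not overlap at 3 of the 22, with 1 higher and 2 lower in knockout cells, beside 18.1% of all tested probe sets (9.16% higher, 8.99% lower). The median difference of the 22 was -0.0019, beside 0.0089 over all tested probe sets. A second limma fit took the replicate number of the titles as a block, for which the shared deviations speak mainly at number 1. In it 1 of the 22 was lower, in Jak1, and 0 were higher, beside 7.88% of all tested probe sets called (4.39% lower, 3.49% higher). An unadjusted p under 0.05 was reached there by 7, beside 22.3%. The labels state no pairing of the arrays, so the differences within a number given below are descriptions.

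**Figure D1:**
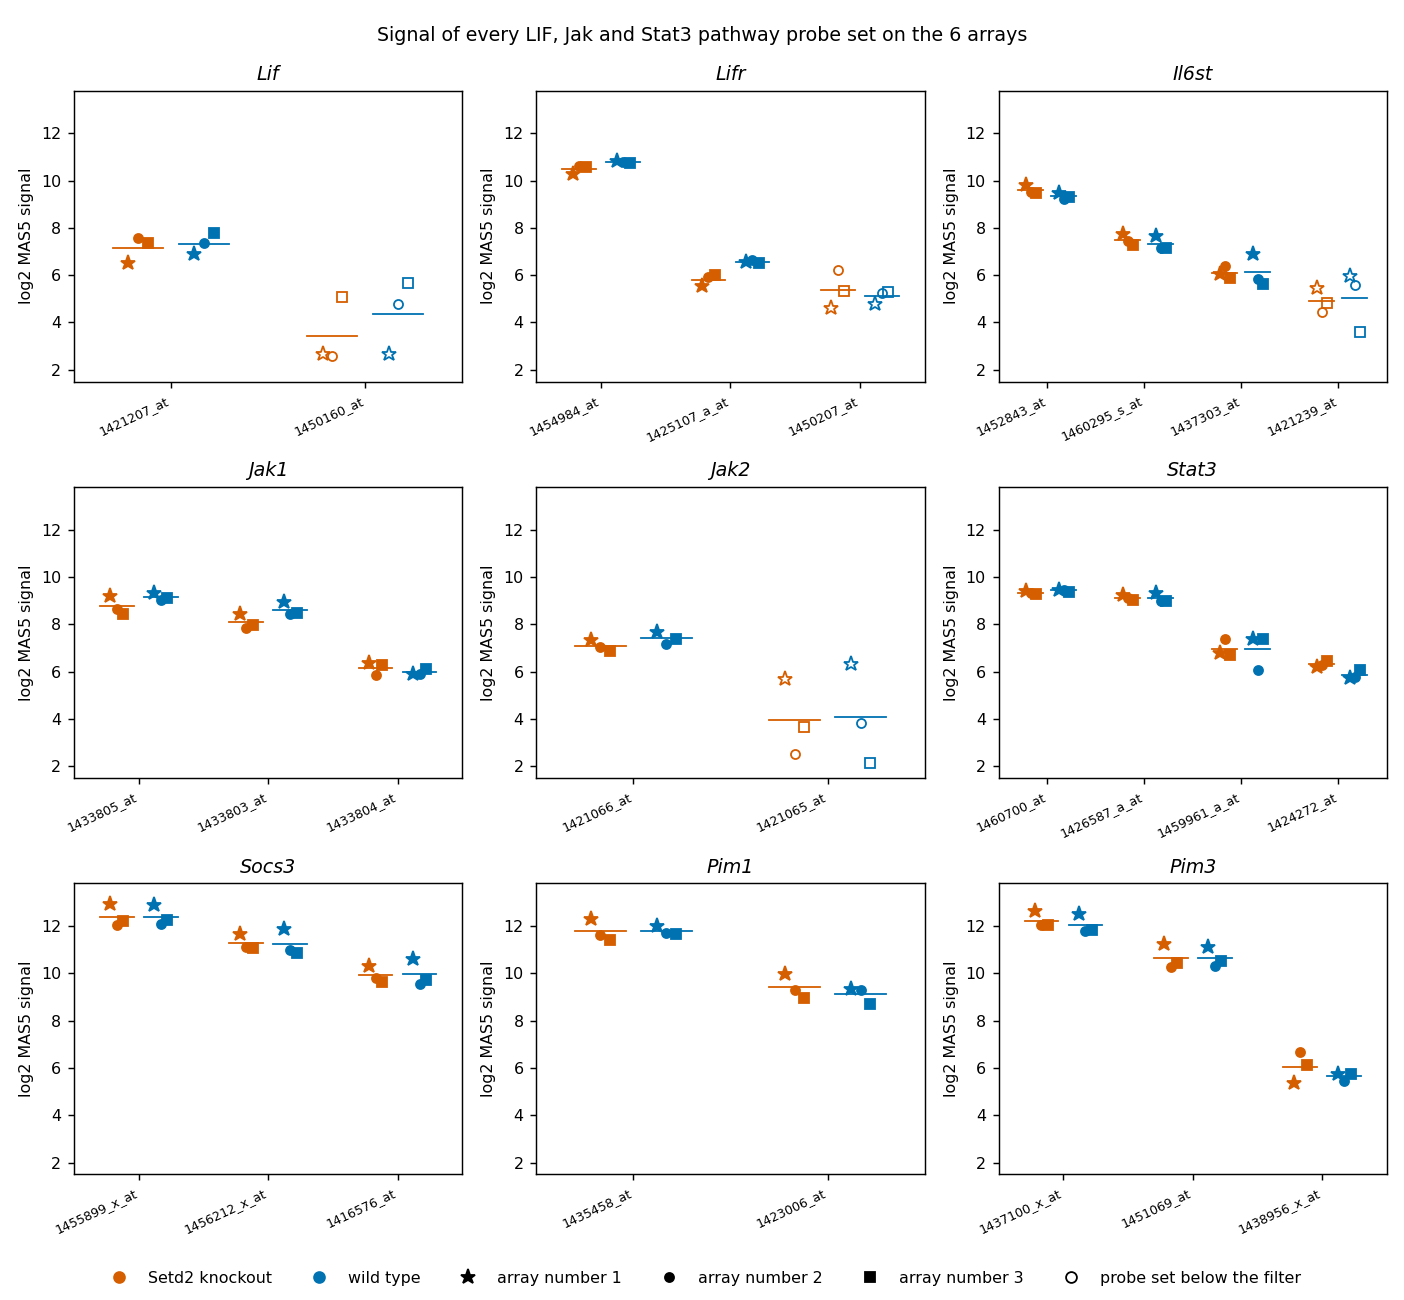
Log2 MAS5 signal (vertical axis) of all 26 probe sets of the 9 pathway genes, with a panel per gene, knockout arrays in orange left of wild type arrays in blue, horizontal bars for the means of 3 arrays, marker shapes for the replicate number and open markers for the 4 probe sets below the filter. For Socs3 and Pim3 the stars of arrays numbered 1 stand above the other arrays in both genotypes, except at the dim Pim3 probe set 1438956_x_at.

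The ligand came first. Lif was read by 1421207_at at 6.53, 7.59 and 7.37 on knockout arrays 1, 2 and 3, against 6.88, 7.34 and 7.78 on wild type arrays 1, 2 and 3. The genotypes overlapped, and in each of them the array numbered 1 was the lowest. The difference was -0.17 with a 95% interval of -0.93 to 0.59 (limma adjusted p = 0.903). The second Lif probe set, 1450160_at, lay below the filter, at 2.67, 2.58 and 5.09 in knockout cells and 2.68, 4.77 and 5.66 in wild type cells, and was not tested. In bulk RNA, fewer cells of a type and less RNA per cell cannot be told apart, and fibroblast feeders are themselves a known source of LIF. The mean of the 13 tested feeder markers, among them the contractile gene Acta2 and collagen Col1a2, was 7.56, 8.99 and 8.89 on knockout arrays 1, 2 and 3, and 7.82, 8.62 and 9.09 on wild type arrays 1, 2 and 3. It was thus lowest on the same arrays as Lif. At 9 of the 13 markers both arrays numbered 1 lay below the other 4, beside 16.9% of all genes, and no marker was at 0. Of the other markers Fn1 and Thy1 were on average higher on the arrays numbered 1, by 0.19 and 0.32. The part of feeder RNA in the Lif signal was not tested.

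Neither receptor chain, Lifr or gp130, had a probe set past the threshold. The brightest Lifr probe set, 1454984_at, read 10.28, 10.63 and 10.58 in knockout cells, against 10.83, 10.77 and 10.74 in wild type cells. All 3 knockout values lay below all 3 wild type values, the knockout array numbered 1 furthest. The difference was -0.28 ± 0.13 (SE), with a 95% interval of -0.57 to 0.0058 and limma adjusted p = 0.439 (0.119 with the replicate block). A dimmer Lifr probe set, 1425107_a_at, read 5.53, 5.92 and 5.99 in knockout cells and 6.56, 6.64 and 6.52 in wild type cells, again with no overlap. Its difference of -0.76 ± 0.25 (SE) was the largest of the 22 and corresponds to a signal 1.69-fold lower (95% interval -1.33 to -0.19, limma adjusted p = 0.274, unadjusted p = 0.0148). The third Lifr probe set, 1450207_at, lay below the filter and overlapped between the genotypes, at 4.60, 6.23 and 5.32 in knockout cells and 4.79, 5.26 and 5.30 in wild type cells. Both tested Lifr probe sets were thus lower in knockout cells without passing the threshold. The untested 1450207_at did not repeat this, with differences of -0.19, 0.97 and 0.017 within numbers 1, 2 and 3.

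Il6st encodes gp130, the chain that LIF shares with interleukin 6 and its relatives. Its brightest probe set, 1452843_at, read 9.83, 9.53 and 9.48 in knockout cells and 9.49, 9.23 and 9.31 in wild type cells. Within each replicate number the knockout array was higher, by 0.34, 0.31 and 0.16, but the groups overlapped narrowly. The difference was 0.27 ± 0.15 (SE; 95% interval -0.07 to 0.61, limma adjusted p = 0.553, 0.143 with the replicate block). Of the other Il6st probe sets, 1460295_s_at differed by 0.16 (-0.34 to 0.66) and 1437303_at by -0.017 (-0.88 to 0.84). The fourth, 1421239_at, lay below the filter and spread from 4.44 to 5.44 in knockout cells and from 3.59 to 5.98 in wild type cells.

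Jak1, the kinase bound to gp130 that carries much of the signal from these receptors, held the 1 call of the blocked fit. Probe set 1433803_at read 8.43, 7.86 and 7.98 on knockout arrays 1, 2 and 3, against 8.92, 8.42 and 8.46 on wild type arrays 1, 2 and 3. Within each number, which is not stated to be a pair, the knockout array was lower by a similar amount, with differences of -0.48, -0.56 and -0.48. The groups overlapped, since the knockout array numbered 1 lay between the wild type arrays numbered 2 and 3. The difference of -0.51 corresponds to a signal 1.42-fold lower (SE 0.21, limma adjusted p = 0.414 without a block; SE 0.13, adjusted p = 0.0368 with the replicate block). The brightest Jak1 probe set, 1433805_at, read 9.20, 8.66 and 8.45 in knockout cells and 9.33, 9.02 and 9.12 in wild type cells. It differed by -0.39 ± 0.21 (SE; limma adjusted p = 0.544, 0.104 with the replicate block) and by -0.13, -0.36 and -0.67 within numbers 1, 2 and 3. The dimmer 1433804_at went the other way, at 6.38, 5.83 and 6.26 in knockout cells and 5.91, 5.90 and 6.13 in wild type cells, with a difference of 0.18 (95% interval -0.43 to 0.79). Without both arrays numbered 1 the differences were -0.52 at 1433803_at (limma adjusted p = 0.0697) and -0.52 at 1433805_at (0.0487). The lower Jak1 signal thus rests on 2 of its 3 probe sets and on fits that take out the array number or leave out number 1.

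Jak2, a related kinase that also binds gp130, had 1 tested probe set, 1421066_at. It read 7.35, 7.03 and 6.87 in knockout cells and 7.69, 7.16 and 7.39 in wild type cells, and differed by -0.33 with a 95% interval of -0.84 to 0.18 (limma adjusted p = 0.642). The knockout array was the lower one within each number, though the groups overlapped. The other Jak2 probe set, 1421065_at, lay below the filter at 5.69, 2.53 and 3.67 in knockout cells and 6.34, 3.84 and 2.11 in wild type cells.

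Stat3, the transcription factor on which the LIF signal converges, showed no difference past the threshold, with its narrowest intervals at its 2 bright probe sets. At 1460700_at it read 9.41, 9.32 and 9.29 in knockout cells and 9.46, 9.45 and 9.37 in wild type cells, a difference of -0.091 with a 95% interval of -0.37 to 0.19 (limma adjusted p = 0.853). At 1426587_a_at the values were 9.23, 9.12 and 9.04 in knockout cells and 9.32, 9.002 and 8.97 in wild type cells, with a difference of 0.032 (-0.31 to 0.38). The genotypes overlapped at both, and phosphorylated Stat3, the active form, is not read by an array. The dimmer 1424272_at had no overlap, at 6.20, 6.29 and 6.43 in knockout cells and 5.74, 5.78 and 6.06 in wild type cells (difference 0.44, -0.12 to 1.01, limma adjusted p = 0.558). At 1459961_a_at the values spread from 6.70 to 7.39 in knockout cells and from 6.06 to 7.38 in wild type cells.

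**Figure D2:**
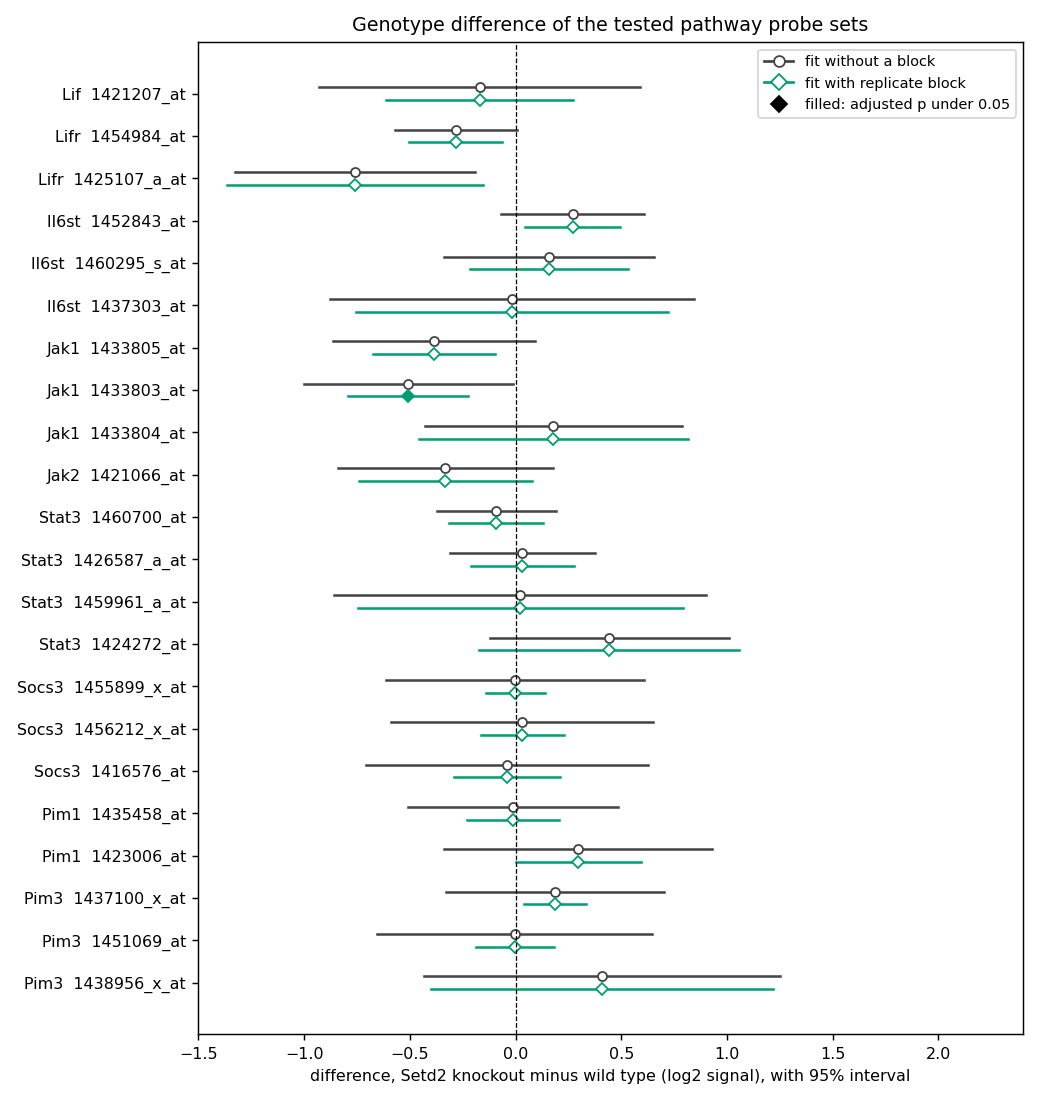
Difference of each of the 22 tested probe sets, Setd2 knockout minus wild type in log2 signal (horizontal axis), with 95% intervals from limma without a block (dark circles) and with the replicate block (green diamonds), filled where the adjusted p was under 0.05. The 1 filled marker is Jak1 1433803_at in the blocked fit, and the blocked intervals of the 3 Socs3 probe sets are far shorter than the unblocked ones and cover 0.

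Socs3, the brake of the pathway and a direct target of Stat3, lay close together in both genotypes within each array number at its brightest probe set. Probe set 1455899_x_at read 12.94, 12.03 and 12.21 on knockout arrays 1, 2 and 3, against 12.87, 12.07 and 12.24 on wild type arrays 1, 2 and 3. The arrays numbered 1 stood above the other 4 in both genotypes, and the knockout array differed from the wild type array of its number by 0.072, -0.044 and -0.030. The difference between the genotypes was -0.00074, with a 95% interval of -0.61 to 0.61 without a block and of -0.14 to 0.14 with the replicate block (limma adjusted p = 1.00 and 0.997). At 1456212_x_at Socs3 read 11.66, 11.11 and 11.05 in knockout cells and 11.87, 10.97 and 10.88 in wild type cells. The difference was 0.032, with an interval of -0.59 to 0.65 without a block and of -0.17 to 0.23 with it. At 1416576_at Socs3 read 10.32, 9.79 and 9.65 in knockout cells and 10.61, 9.54 and 9.73 in wild type cells. The difference was -0.040, with an interval of -0.71 to 0.63 without a block and of -0.29 to 0.21 with it. All 3 probe sets thus had the array numbered 1 highest in each genotype. Probe sets ending in _x_at hold probes that can also match other transcripts, which applies to 2 of the 3.

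Pim1 and Pim3 encode serine/threonine kinases that Stat3 switches on and that help mESCs to self-renew. Pim3 at 1437100_x_at read 12.62, 12.03 and 12.03 in knockout cells and 12.51, 11.77 and 11.85 in wild type cells. Its difference was 0.19, with a 95% interval of -0.33 to 0.70 without a block (limma adjusted p = 0.829). With the replicate block the interval was 0.039 to 0.33 (limma adjusted p = 0.123). A second Pim3 probe set, 1451069_at, read 11.24, 10.27 and 10.45 in knockout cells and 11.12, 10.32 and 10.51 in wild type cells. There the difference was -0.0030, with an interval of -0.65 to 0.65 without a block and of -0.19 to 0.18 with it. Both probe sets repeated the order seen for Socs3, with the arrays numbered 1 above the other 4. The dim 1438956_x_at did not, at 5.37, 6.66 and 6.13 in knockout cells and 5.73, 5.46 and 5.73 in wild type cells. Both 1437100_x_at, the brightest Pim3 probe set, and 1438956_x_at hold probes that can also match other transcripts.

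Pim1 at 1435458_at read 12.30, 11.63 and 11.39 in knockout cells and 11.995, 11.70 and 11.66 in wild type cells. Its difference was -0.013, with a 95% interval of -0.51 to 0.48 without a block and of -0.23 to 0.21 with the replicate block. At 1423006_at Pim1 read 9.98, 9.28 and 8.96 in knockout cells and 9.32, 9.29 and 8.72 in wild type cells, a difference of 0.30 (limma adjusted p = 0.759, 0.224 with the replicate block). The groups overlapped at both probe sets, and the array numbered 1 was the highest of each genotype.

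The 3 targets thus shared a difference by array number. Over the 22 tested probe sets, both arrays numbered 1 lay above the other 4 at 10, beside 19.8% of all tested probe sets, and below them at 1, the Lif probe set, beside 16.2%. All but 1 of the 8 probe sets of Socs3, Pim1 and Pim3 were among the 10, and probe sets of 1 gene are not independent. At Socs3 1455899_x_at the arrays numbered 1 exceeded the others by 0.82 in knockout cells and by 0.71 in wild type cells, a 1.70-fold higher signal over both genotypes. At Pim3 1437100_x_at the excess was 0.59 in knockout cells and 0.70 in wild type cells, and at Pim1 1435458_at it was 0.79 in knockout cells and 0.31 in wild type cells. For Stat3 the excess was 0.11 in knockout cells and 0.053 in wild type cells at 1460700_at, and 0.15 in knockout cells and 0.33 in wild type cells at 1426587_a_at, which was among the 10. The pattern was not particular to these genes. Of the 12 other tested targets of LIF and Stat3, both arrays numbered 1 lay above the other 4 at 4 and below them at 3. Of 10 stem cell markers they lay above at 3 and below at 3. At the marker Nanog the excess was 0.85 in knockout cells and 0.67 in wild type cells, on average the highest of the 10. At Utf1, on average the lowest, it was -0.44 in knockout cells and -0.28 in wild type cells. The labels do not say what a number shares. The mean of the feeder markers, lowest on the arrays numbered 1, moved opposite to Socs3, Pim1 and Pim3. The part of feeder RNA in the difference was not tested.

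**Figure D3:**
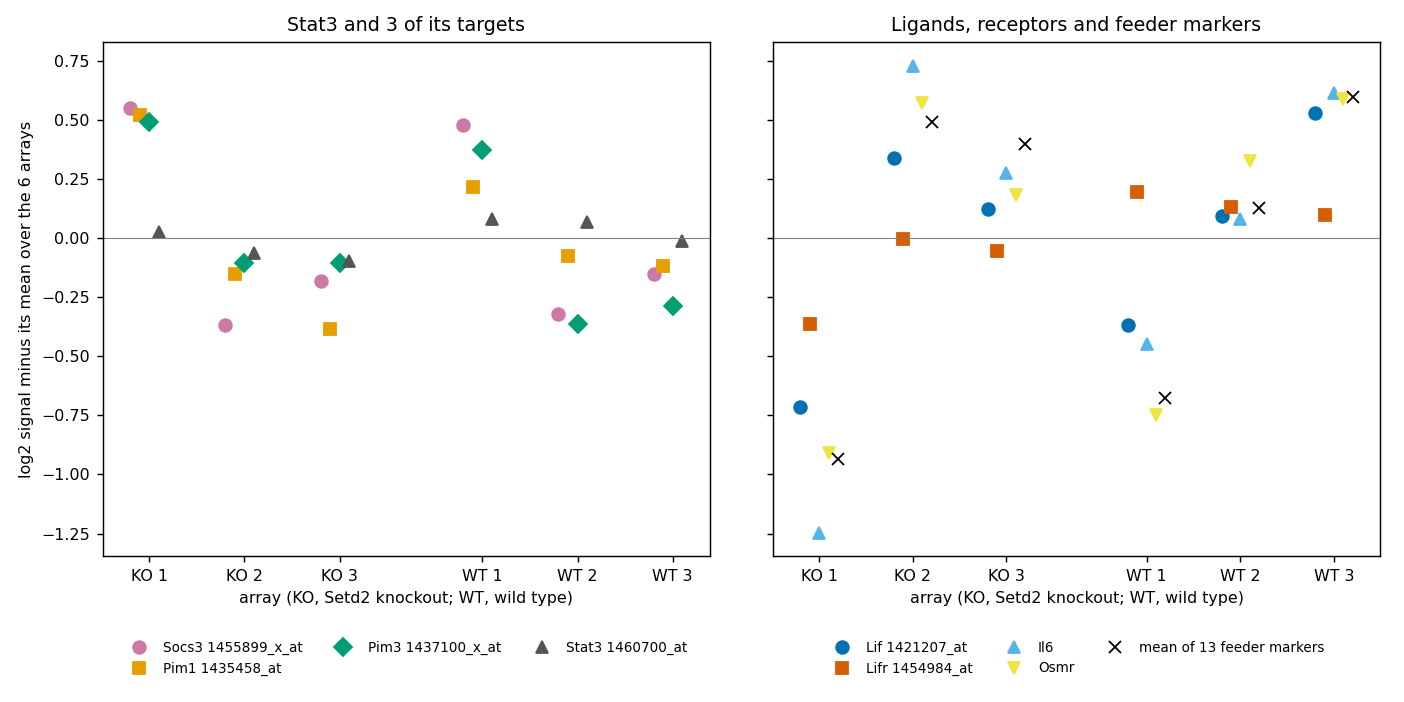
Log2 signal minus its mean over the 6 arrays (vertical axis) for each array (horizontal axis, KO for Setd2 knockout and WT for wild type), with Stat3, Socs3, Pim1 and Pim3 on the left and Lif, Lifr, Il6, Osmr and the mean of 13 feeder markers on the right. Socs3, Pim1 and Pim3 are highest on KO 1 and WT 1, where Lif, Il6, Osmr and the feeder markers are lowest, while Lifr is lower on all 3 KO arrays than on any WT array.

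The promoter of Socs3 carries a Stat motif and that of Pim3 does not, and both are shown because these genes shared the pattern over the arrays. The windows run from 250 bases before to 50 bases after the gene's start, from RefSeq on GRCm38.p6, where all 9 members had a window and Lifr and Pim1 had 2 each. The motif searched was TTCNNNGAA, the palindromic site that Stat factors bind, which reads the same on both strands. Capitals mark it. The Socs3 window lies at chr11:117969317-117969616 on the minus strand, the Pim3 window at chr15:88861944-88862243 on the plus strand.
Socs3: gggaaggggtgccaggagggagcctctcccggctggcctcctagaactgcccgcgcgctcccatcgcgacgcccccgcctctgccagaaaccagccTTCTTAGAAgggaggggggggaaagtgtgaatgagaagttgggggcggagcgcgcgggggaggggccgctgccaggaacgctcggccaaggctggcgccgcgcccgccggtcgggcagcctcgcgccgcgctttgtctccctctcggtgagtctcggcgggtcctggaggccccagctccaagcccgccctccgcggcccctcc
Pim3: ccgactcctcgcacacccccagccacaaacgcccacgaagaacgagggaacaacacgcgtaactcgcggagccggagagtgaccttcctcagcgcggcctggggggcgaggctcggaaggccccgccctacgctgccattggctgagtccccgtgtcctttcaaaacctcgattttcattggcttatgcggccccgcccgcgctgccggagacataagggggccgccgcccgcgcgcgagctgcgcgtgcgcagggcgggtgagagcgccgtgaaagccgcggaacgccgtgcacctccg
The match in the Socs3 window starts 154 bases before the gene's start. It was the 1 match among the 11 windows of the members, and 8.3% of the 32851 windows of the table hold the motif. A match of letters is a description and not a binding site, and its absence says only that these letters are not in this window.

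Genes whose signal followed a member most closely were taken by Pearson r over the 6 arrays, from 12915 genes at their brightest tested probe set, and are a description since 6 arrays share their genotype and number. Stat3 was followed by Olig1 (r = 0.98), Tle5 (0.98) and Mn1 (0.98). Socs3 was followed by Mrps6 (0.999), Vps26c (0.998) and Edem2 (0.996). Among the members, Pim3 had r = 0.93 with Socs3, Pim1 0.86 and Lif -0.88. Lifr was followed by the helicase gene Hells (0.99), the zinc finger gene Sall1 (0.99) and the imprinted noncoding RNA Meg3 (0.98). Sall1 lies on chromosome 8, whose genes were lower as described above. It differed by -0.58 (limma adjusted p = 0.277, 0.0203 with the replicate block). Meg3 differed by -1.94 (limma adjusted p = 0.127, 0.00885 with the replicate block). Meg3 read 7.49, 9.21 and 9.45 in knockout cells, against 11.00, 10.53 and 10.44 in wild type cells, so it had its lowest and its highest value on the same arrays as Lifr, the knockout and the wild type array numbered 1.

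The wider pathway was read in 6 lists of 64 genes, of which 53 were tested, each at its brightest tested probe set. None of the 53 was called in limma without a block, where 0.736% of all 12915 genes were (0.256% higher, 0.48% lower), and 7 had an unadjusted p under 0.05, beside 13.4% of all genes. With the replicate block 2 were higher and 4 were lower, beside 9.87% of all genes called in that fit (4.13% higher, 5.75% lower). The median difference of the 53 genes was 0.0072, beside -0.00056 over all genes tested.

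Among the other targets of LIF and Stat3, 0 of 12 passed without a block, and with it 1 was higher and 2 were lower, with a list median of -0.14. Pim2, the third kinase of the Pim family, stood apart from Pim1 and Pim3. It read 10.48, 11.72 and 11.39 on knockout arrays 1, 2 and 3, against 9.48, 10.56 and 10.01 on wild type arrays 1, 2 and 3. Within each number the knockout array was higher, by 1.01, 1.16 and 1.37, and the arrays numbered 1 were here the lowest of each genotype. The groups overlapped, since knockout array 1 (10.48) lay below wild type array 2 (10.56). The difference of 1.18 is a 2.27-fold higher signal (limma adjusted p = 0.227 without a block; SE 0.092, adjusted p = 7.12e-05 with the replicate block). Without the knockout array numbered 1 it was 1.54 and passed the threshold without a block too (adjusted p = 0.0385). Pim2 did not pass when any other single array was left out (limma adjusted p up to 0.580). Over the fits without a single array its difference ranged from 0.91 to 1.54. Pim2 lies on the X chromosome. It and the other genes named from the blocked fit in this list and the next 2 were chosen after their values were seen.

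Bcl3, an atypical inhibitor of NF-kappaB that Stat3 induces, read 8.52, 8.09 and 8.46 in knockout cells and 9.37, 8.82 and 8.76 in wild type cells. All knockout values lay below all wild type values, with a difference of -0.63 (limma adjusted p = 0.288, 0.0209 with the replicate block). Gbx2, a homeobox gene that LIF induces in mESCs, read 9.50, 10.48 and 10.52 in knockout cells and 10.29, 10.85 and 10.72 in wild type cells. Its groups overlapped, and its difference was -0.45 (limma adjusted p = 0.606, 0.0352 with the replicate block). The brightest members, the survival gene Mcl1 and the pluripotency factor gene Klf4, differed by 0.12 (95% interval -0.07 to 0.30) and 0.11 (-0.23 to 0.44). The calls among the targets of LIF thus ran in both directions, and those of Bcl3 and Gbx2 were made in the blocked fit alone.

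The Shp2, Mapk and PI3K branches of LIF signalling had 12 tested genes of 17 and a list median of -0.09. None passed without a block, while with it Sos1, the exchange factor that activates Ras, was higher and Gab1, a docking protein of the gp130 complex, was lower. Sos1 read 10.34, 10.14 and 10.18 in knockout cells and 9.96, 9.71 and 9.71 in wild type cells, with no overlap and a difference of 0.42 (limma adjusted p = 0.241, 0.0163 with the replicate block). Gab1 read 12.75, 12.77 and 12.79 in knockout cells and 12.98, 13.06 and 13.07 in wild type cells, likewise with no overlap (difference -0.27, limma adjusted p = 0.160, 0.0194 with the replicate block). Gab1 lies on chromosome 8, whose genes were lower as described above. Map2k1, the kinase gene of the Mapk branch and next to Gab1 the brightest of this list, differed by -0.085 (95% interval -0.34 to 0.17). Of 14 other brakes on Jak and Stat 0 passed without a block and 1 was lower with it, Pias2, at -0.30 (limma adjusted p = 0.420, 0.0292 with the replicate block). The brightest of these, the phosphatase gene Ptpn2 and the Socs family gene Socs2, differed by -0.16 (95% interval -0.35 to 0.023) and 0.17 (-0.23 to 0.57).

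The remaining relatives gave no call in either fit. Of 7 tested Jak and Stat genes, with a list median of -0.31, the brightest, Stat6 and the kinase gene Tyk2, differed by 0.16 (95% interval -0.19 to 0.50) and -0.31 (-0.61 to 0.0022). Of 5 tested cytokines of the gp130 family, Il6 and Ctf1 were the brightest and differed by -0.16 (-1.30 to 0.97) and -0.26 (-0.64 to 0.13). Of 3 tested receptor chains, Cntfr differed by 0.073 (-0.51 to 0.66) and Osmr, the oncostatin M receptor, by -0.11 (-1.18 to 0.97). Il6, Osmr and Cntfr repeated the pattern of Lif over the arrays, with the arrays numbered 1 lowest. Both arrays numbered 1 lay below the other 4 at 1 of the 5 cytokines and 2 of the 3 receptor chains, beside 16.9% of all genes. Il6 read 6.16 on the knockout and 6.96 on the wild type array of that number, and between 7.49 and 8.14 on the other 4. Osmr read 5.49 and 5.65 on those arrays, and between 6.58 and 6.99 on the other 4. Cntfr read 7.06 and 7.04 on them, and between 7.59 and 7.80 on the other 4. The mean of the feeder markers was lowest on the same arrays, and their part was not tested. Of the 13 feeder markers 0 passed without a block, and 1 was higher with it, the matrix gene Fn1.

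**Figure D4:**
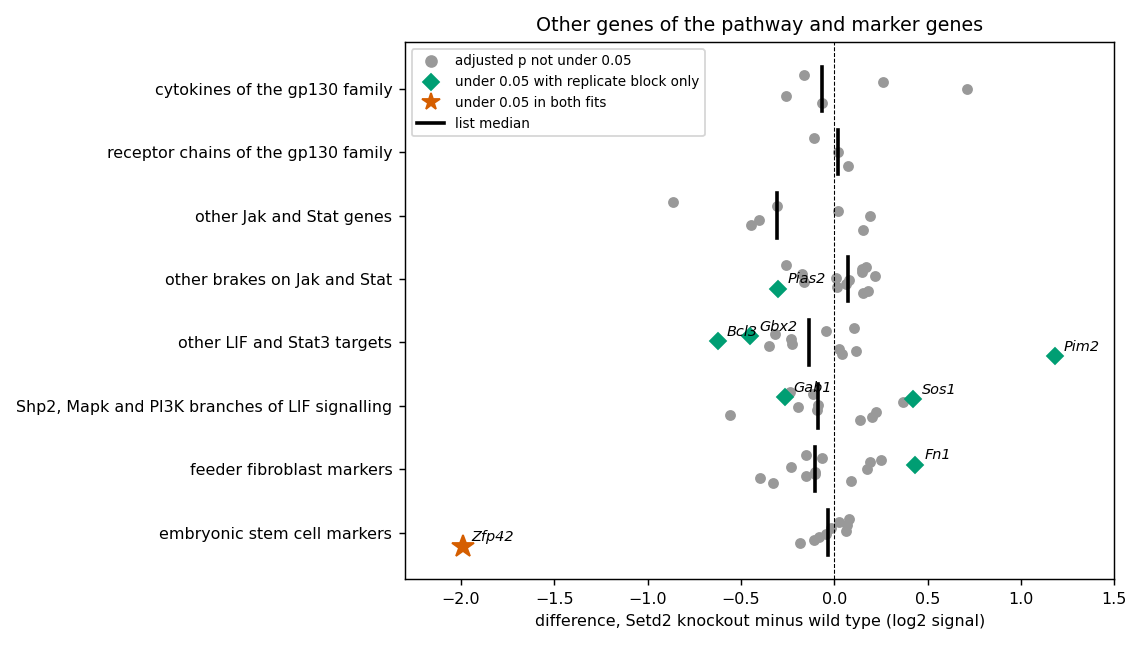
Difference of each tested gene, Setd2 knockout minus wild type in log2 signal (horizontal axis), by list, with black bars for list medians, green diamonds for genes past the threshold with the replicate block alone and a star for the gene past it in both fits. Pim2 lies far to the right of the other targets of LIF and Stat3 at 1.18, and Zfp42 is the 1 star.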

How the data were processed

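The deposited values were log2 signals on 6 arrays, made by the authors with MAS5, per the submitters' processing notes, which name no version. The scale was read from the values, since after raising 2 to each, the trimmed means lay between 497.0 and 497.3, and no further normalization was applied. Detection calls were not used here. For arrays the number of arrays limits the precision. Symbols came from the platform annotation, updated through gene identifiers against a RefSeq table of GRCm38.p6 for 34741 of the 34945 probe sets that name 1 gene.

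Probe sets with a mean below the 40th percentile (5.27) were left out, and 27022 were tested, knockout minus wild type, with limma 3.58.1 in R 4.3.3 (lmFit, eBayes with an intensity trend, two-sided, Benjamini-Hochberg over all tested probe sets, threshold 0.05). The fit was tested on simulated data with independent noise. These held no deviation shared by arrays of the same number, so the test does not cover that pattern. Intervals are 95% intervals of the fitted difference. The titles number the arrays 1 to 3 in each genotype. Deviations from the genotype means correlated at r = 0.50, 0.23 and 0.24 between arrays of the same number, each above the bound of 0.1. Unlike numbers passed it too, at 0.23 for knockout array 3 with wild type array 2 and 0.17 for knockout array 2 with wild type array 3. The bound therefore cannot pair numbers 2 and 3, and the check rests mainly on number 1. As the labels state no pairing, the fit without a block is the main one, and the blocked fit is given beside it as an alternative. Alternatives are given in the closing section.

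Named were Setd2, all members, up to 4 called genes of each list or else its 2 brightest, and the 3 genes most like Stat3, Socs3 and Lifr, with clone names passed over. Members and lists were chosen with earlier results of these data known.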

Additional observations from a re-analysis of the deposited data

How the results depend on the processing

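Over the 22 tested member probe sets and 14 alternatives, 276 of 308 differences kept their direction and their side of the threshold, 2 passed it, both in Jak1, and 30, at 10 probe sets with differences of at most 0.19, changed sign without being called. The count of member probe sets past the threshold went from 0 to 1 with the replicate block and to 1 without both arrays numbered 1, at different Jak1 probe sets, and stayed at 0 without any single array. The count of other pathway genes went from 0 to 6 with the replicate block and to 6 without both arrays numbered 1, and ranged from 0 to 1 when single arrays were left out. The count over all probe sets went from 175 to 2129 with the replicate block, to 2025 without both arrays numbered 1 and to 57 without the intensity trend, and ranged from 33 to 437 when single arrays were left out, the highest without knockout array 1. The call of Setd2 was also lost without the intensity trend (limma adjusted p = 0.0916). Pias2, Pim2, Gab1 and Sos1 passed both with the block and without the arrays numbered 1. Bcl3 and Gbx2 passed with the block alone, Socs2 and Ptpn11 without those arrays alone. The causes were not tested. The 4 member probe sets with a mean below the filter value of 5.27 were left out of the main comparison, and 0 of the 26 passed the threshold without the filter.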
